A study of Mus musculus with 16 samples.

Results

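The presynaptic active zone is held together by a small set of large scaffold proteins, and the expression of 10 genes that encode them was examined in the cortex of mouse pups. The genes were piccolo (Pclo), bassoon (Bsn), Rims1, Rims2, Erc1, Erc2, Unc13a, Unc13b, Ppfia2 and Ppfia3, chosen by symbol from the 36930 entries of the deposited table, of which 28238 had reads. Rims1 has 2 entries, 1 for the 5' part and 1 for the 3' part of the gene, so that the 10 genes stand for 11 entries, and all 11 had a value in every pup. Cortices of 16 C57BL6 pups were sequenced at P7 as 8 biological replicates per genotype. ChR2-flfl pups carried the Ai27D transgene at the Rosa26 locus, a fusion of the light-gated cation channel ChR2 with tdTomato behind a floxed STOP, and had no Cre recombinase. Avil-ChR2 pups carried the same transgene together with Cre under the advillin promoter. The study supposed that in the first week of life this makes mostly peripheral nociceptive neurons sensitive to light. Both genotypes received 1 h of blue light each day between P1 and P5 beside a Cre-negative mother, so that no pup was left without light. The comparison addresses early-life activation of nociceptors, but in these pups the presence of Cre and of ChR2 and its activation by light cannot be told apart. In whole tissue, fewer cells of a type and less RNA per cell cannot be told apart. Between 30549126 reads (ChR2-flfl replicate 3) and 48711134 reads (Avil-ChR2 replicate 5) were assigned to genes per pup. Values are normalized reads, i.e. CPM (read counts relative to library size) scaled by the trimmed mean of M values (TMM), and a log2 difference below 0 means a lower value in Avil-ChR2.

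The genotype labels were checked with Avil, the advillin gene itself. It reached 0.825 to 1.46 normalized reads without Cre and 37.3 to 46.4 in Avil-ChR2 pups (n = 8 each), without overlap, which holds for 0.0283% of all entries. The tissue label was checked with markers of excitatory cortical neurons, and Slc17a7 (417 to 556 normalized reads), Neurod6 (166 to 236) and Tbr1 (80.3 to 121) were expressed in every pup. Choroid plexus markers were close to 0, with 0 to 1.19 normalized reads for Ttr.

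Piccolo and bassoon are giant paralogous proteins that span the cytomatrix of the active zone, tether synaptic vesicles and protect presynaptic proteins from degradation. RIM proteins bind Rab3 and calcium channels and place vesicles near the site of calcium influx, ELKS/CAST proteins (Erc1, Erc2) and liprin-alpha proteins (Ppfia2, Ppfia3) act as binding platforms, and Munc13 proteins (Unc13a, Unc13b) prime vesicles for fusion by opening syntaxin. In the cortex these genes are expressed mainly by neurons, and the first postnatal weeks are the time when most cortical synapses are formed.

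Pclo is found on the plus strand of chromosome 5 (GRCm38, 14514918 to 14863465), a span of 348.5 kb, and its longest coding transcript in GENCODE has 25 exons and 20.1 kb. Bsn, on the minus strand of chromosome 9 (108096022 to 108191938), spans 95.9 kb and has 12 exons and 15.9 kb in its longest coding transcript. The promoters of the pair are shown because Pclo and Bsn were the members with the lowest log2 differences and varied together between pups. The windows of 300 bases, 250 before and 50 after the transcription start, are those of RefSeq on GRCm38.p6, printed 5' to 3' on the strand of the gene, with matches to GGGCGG (the GC box) or its reverse complement in capitals. The Pclo window is chr5:14514668-14514967 (plus strand) and the Bsn window chr9:108190334-108190633 (minus strand), which lies inside the Bsn entry of the table.
Pclo: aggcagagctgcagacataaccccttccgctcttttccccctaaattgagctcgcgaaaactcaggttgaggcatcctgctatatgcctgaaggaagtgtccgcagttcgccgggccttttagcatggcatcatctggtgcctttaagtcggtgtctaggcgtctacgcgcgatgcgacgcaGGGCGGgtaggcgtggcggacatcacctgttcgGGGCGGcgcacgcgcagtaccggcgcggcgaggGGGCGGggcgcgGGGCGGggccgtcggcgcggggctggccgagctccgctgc
Bsn: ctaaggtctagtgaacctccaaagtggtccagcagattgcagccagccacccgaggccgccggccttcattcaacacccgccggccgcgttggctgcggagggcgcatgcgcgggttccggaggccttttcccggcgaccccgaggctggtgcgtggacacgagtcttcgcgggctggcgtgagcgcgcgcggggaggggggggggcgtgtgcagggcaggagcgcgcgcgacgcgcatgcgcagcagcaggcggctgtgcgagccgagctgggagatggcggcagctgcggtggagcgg
The Pclo window had a GC content of 66% with 35 CpG dinucleotides and the Bsn window 72.3% with 38, whereas the median over 32841 RefSeq promoters was 52.7% and 7. Pclo held 4 matches to GGGCGG, at bases -68, -35, -2 and 11 from the start, and Bsn held none. Of the 9 members with a promoter in the table (all but Rims2), 8 held GGGCGG, which occurred in 35.7% of all promoters, 3 held CCAAT (Unc13b, Ppfia3 and Erc2; 37.4% of all) and 3 held TGACG (Erc1, Ppfia3 and Unc13a; 20.8% of all). None of them held TATAAA, which occurred in 13.6% of all promoters. All 9 windows lay above the median GC content of all promoters, and the shares were not matched for GC content. Both strands were searched for each motif, and these matches are descriptions of the letters and not of bound sites.

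Levels of different genes were compared per kb of the longest coding transcript, over all 16 pups. Erc2, which encodes the brain-enriched protein CAST, had the highest level with 59.4 ± 1.83 normalized reads per kb (SD, n = 16), above Unc13a with 44.2 ± 2.07, and the ranges of these neighbours did not overlap. Ppfia3 with 38.6 ± 2.46 and the broadly expressed Erc1 with 37.6 ± 0.934 did not differ beyond their spread, since Ppfia3 was the higher in 11 of 16 pups. A lower group followed, Ppfia2 (23.3 ± 1.17), Rims2 (21.5 ± 1.26) and Rims1 (20.1 ± 0.867, both entries summed), and the range of each overlapped with that of its neighbour. Unc13b, a Munc13 isoform used by a subset of synapses, was lowest with 6.58 ± 0.496 and did not overlap with any other member. Its longest coding transcript has 14.8 kb and 4390 amino acids, against 10.3 kb and 1712 amino acids for Unc13a. A shorter transcript would give a higher level per kb, so that this place depends on the transcript chosen. Which transcripts the pups expressed was not tested.
Pclo had more normalized reads than Bsn (293 ± 51.4 against 271 ± 37.6, SD, n = 16), but the order turned per kb, with 17.03 ± 2.36 for Bsn and 14.6 ± 2.56 for Pclo. Per kb, Bsn was above Pclo in 15 of 16 pups, and the exception was ChR2-flfl replicate 7. The Rims1 transcripts were read by their 2 entries in a steady proportion, with 1.49 ± 0.0836 times as many normalized reads in the 3' as in the 5' entry in ChR2-flfl and 1.49 ± 0.104 times in Avil-ChR2 pups (SD, n = 8 each).

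**Figure D1:**
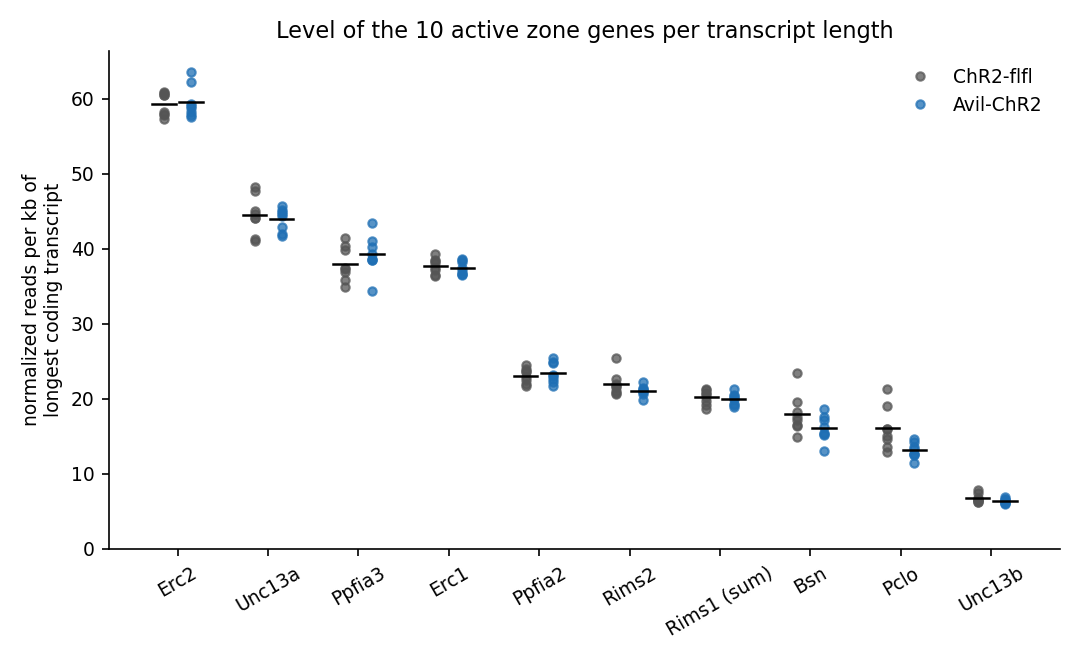
Normalized reads per kb of the longest coding transcript (y axis) of the 10 genes in order of their mean (x axis), with 1 point per pup and a line at the mean of 8 pups per genotype. Erc2 is highest, Unc13b lowest, and the points of the genotypes lie apart most for Pclo.

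Pclo had between 260 and 430 normalized reads in ChR2-flfl pups, with a median of 311, and between 230 and 295 in Avil-ChR2 pups, with a median of 261. Every one of the 8 Avil-ChR2 pups was lower than the mean of the controls, which held for 3.35% of all entries, 4 of them were lower than the lowest control, and 5 ChR2-flfl pups were above the highest Avil-ChR2 pup, so that the groups overlapped in part. The highest ChR2-flfl pups were replicates 1 (430 normalized reads) and 7 (383). The level in Avil-ChR2 was 0.825 times that in ChR2-flfl, a log2 difference of -0.28 (95% interval -0.45 to -0.11), with an adjusted p of 0.77 in limma with Benjamini-Hochberg adjustment over 21183 entries. In a two-sided exact permutation test p was 0.0068, and the unadjusted limma p was below 0.05 as well. Pclo was thus past an unadjusted threshold of 0.05 but not past the adjusted one. Pclo is also a gene that the study picked by its P-value in the same pups, so that its direction here is not independent evidence. The counts behind the values were 8051 (ChR2-flfl replicate 3, the library with the fewest reads) to 20836 reads per pup.

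Bsn had between 237 and 374 normalized reads in ChR2-flfl pups, with a median of 277, and between 208 and 297 in Avil-ChR2 pups, with a median of 252. The groups overlapped between 237 and 297 normalized reads. As for Pclo, the highest pup was ChR2-flfl replicate 1, and 7 of 8 Avil-ChR2 pups were lower than the mean of the controls. The log2 difference was -0.16 (standard error 0.078, 95% interval -0.32 to 0.0039), with an adjusted limma p of 0.91 and p = 0.099 in the exact permutation test. Within the 2 runs of pup numbers, each with 4 pups per genotype, it was -0.15 (pups 26 to 33) and -0.17 (pups 35 to 42). Without ChR2-flfl replicate 1 the log2 difference of Bsn was -0.10 and that of Pclo -0.22, the latter still past the unadjusted threshold. With 1 pup left out, Bsn was past that threshold in 6 of 16 fits (without ChR2-flfl replicates 3, 4 or 6 or Avil-ChR2 replicates 3, 7 or 8), with the lowest value of -0.20 without ChR2-flfl replicate 3, and its adjusted limma p was 0.65 or higher in all 16. Without the 3 pups of lowest array weight (ChR2-flfl replicates 1, 5 and 7, weighted by limma on the scatter of all entries, chosen after seeing the data) the values were -0.045 for Bsn and -0.16 for Pclo.

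**Figure D2:**
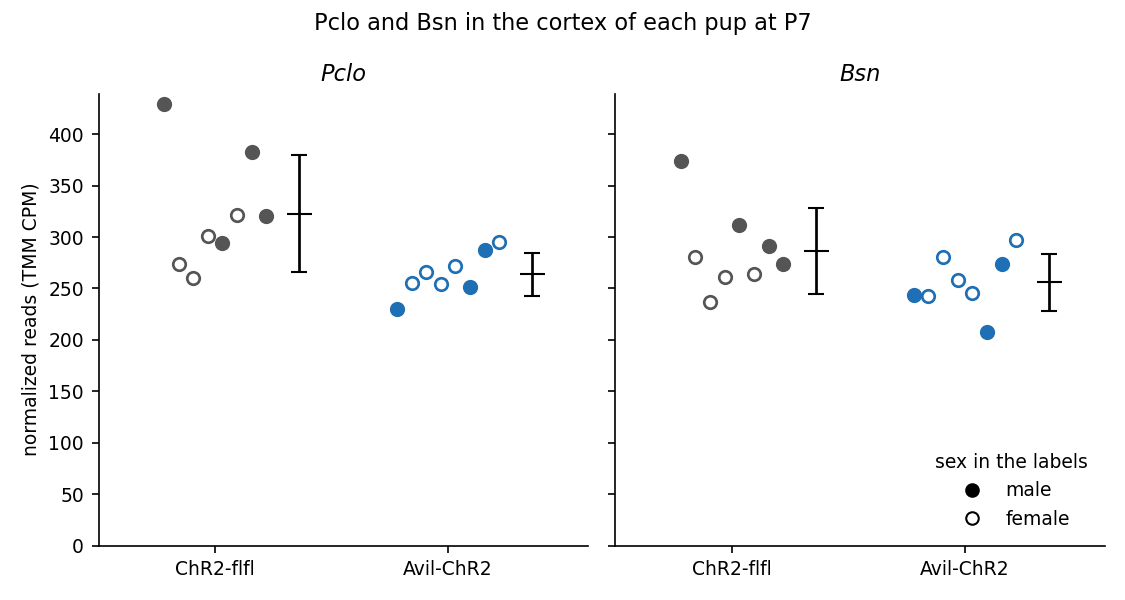
Normalized reads (y axis) of Pclo and Bsn in each pup by genotype (x axis), with filled points for males and open points for females according to the labels, and bars for mean ± SD of 8 pups. Pclo lies between 230 and 295 in Avil-ChR2 pups and reaches 430 in ChR2-flfl pups, and the Bsn groups overlap between 237 and 297.

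Whether the paralogs differed in their genotype difference was tested directly by the ratio of Pclo to Bsn within each pup, in which the scaling between pups cancels. The log2 ratio was 0.17 ± 0.16 in ChR2-flfl and 0.046 ± 0.12 in Avil-ChR2 pups (SD, n = 8 each), with ratios of 0.943 to 1.31 and 0.944 to 1.21. The ranges of the genotypes overlapped almost fully, and the highest ratio was that of ChR2-flfl replicate 7. The difference of -0.12 (95% interval -0.27 to 0.033) was not significant (two-sided exact permutation test, p = 0.12, adjusted p = 0.39 over 5 paralog pairs). A larger difference of Pclo than of Bsn was therefore not shown, and the interval does not show that they moved alike either.
The other paralog pairs had smaller or equally uncertain differences of their log2 ratio. They were 0.041 (95% interval -0.026 to 0.11) for Rims1 against Rims2, -0.018 (-0.061 to 0.025) for Erc1 against Erc2, 0.062 (-0.045 to 0.17) for Unc13a against Unc13b and -0.024 (-0.19 to 0.14) for Ppfia2 against Ppfia3. The adjusted p of the exact permutation tests lay between 0.39 and 0.75.

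Across the 16 pups, log2 values of Pclo and Bsn correlated with Pearson's r = 0.77 (permutation p = 0.00074, adjusted p = 0.0037 over 5 sets of pups) and Spearman's rho = 0.72 (permutation p = 0.0023, adjusted p = 0.011). Leaving out the 2 pups farthest from the median of Pclo gave r = 0.57. Within the genotypes r was 0.76 in ChR2-flfl (permutation p = 0.031, adjusted p = 0.052) and 0.65 in Avil-ChR2 pups (permutation p = 0.077, adjusted p = 0.096), and the first fell to 0.30 without its 2 farthest pups and thus rests on them. By run of pup numbers, r was 0.91 (pups 26 to 33) and 0.61 (pups 35 to 42), and in the latter it was not significant (permutation p = 0.12). Without the 2 farthest pups of each run, r was 0.35 and 0.17, so that both values rest on those pups.

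**Figure D3:**
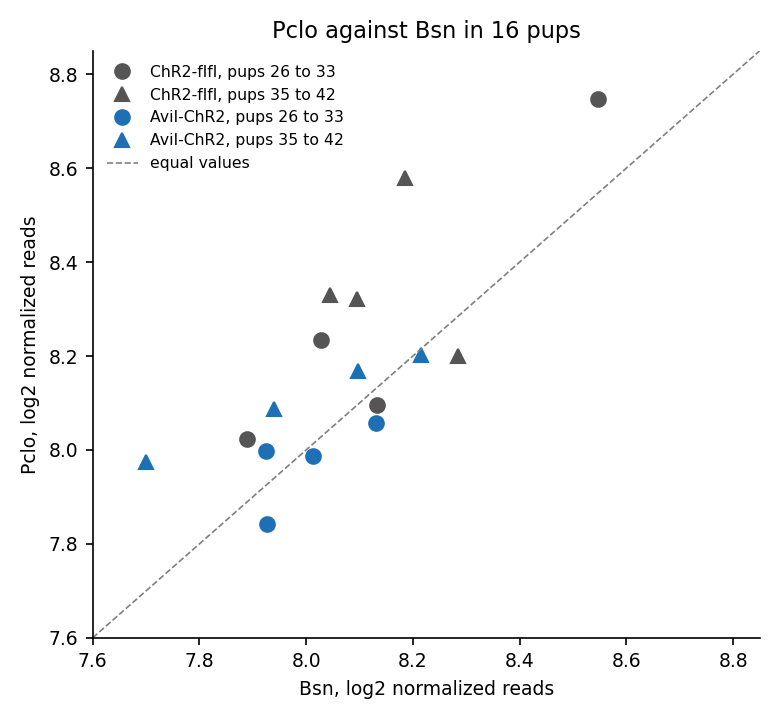
Log2 normalized reads of Pclo (y axis) against Bsn (x axis), 1 point per pup, with colour for genotype, shape for the run of pup numbers and a dashed line of equal values. ChR2-flfl replicate 1 is highest for both genes, and all 8 Avil-ChR2 pups lie closer to the line than ChR2-flfl replicate 7.

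The log2 differences of the remaining scaffolds lay closer to 0. Of the 11 entries, 1 (Pclo) had an unadjusted limma p under 0.05, whereas 5.41% of all 21183 entries did (3.46% lower and 1.95% higher in Avil-ChR2). None had an adjusted p under 0.05, which 0.00944% of all entries had, and the groups overlapped for all 11 entries. The log2 difference was below 0 for 8 entries and above 0 for 3, and the median was -0.018, beside 0.0020 over all entries, of which 48.6% were below 0. Of the 11 member entries, 8 have a span of at least 100 kb. Among all 2403 entries of that span with a mean log2 value of 0 or more, 1576 were below 0.

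The RIM genes, which encode the Rab3 effectors of the active zone, were close between genotypes. Rims1 had 120 to 137 normalized reads with a median of 132 in ChR2-flfl and 122 to 138 with a median of 129 in Avil-ChR2 pups as the sum of its entries. The groups overlapped almost fully, and the log2 difference was -0.018 for the 5' entry (chromosome 1, 22468191 to 22805724) and -0.017 for the 3' entry (22288422 to 22432843), with exact permutation p = 0.71 and p = 0.58. The 3' entry lay between -0.032 (without ChR2-flfl replicate 2) and -0.0038 (without ChR2-flfl replicate 7) with 1 pup left out. Rims2 (chromosome 15, 39198064 to 39684375) had 99.1 to 122 normalized reads with a median of 104 in ChR2-flfl and 95.02 to 107 with a median of 101.4 in Avil-ChR2 pups. Its log2 difference was -0.058 (95% interval -0.14 to 0.019, exact permutation p = 0.15), and without ChR2-flfl replicate 7, by far the highest pup, it was -0.028.

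The ELKS/CAST genes were the steadiest members. Erc1 (chromosome 6, 119570796 to 119849739) had 318 to 344 normalized reads in ChR2-flfl and 319 to 339 in Avil-ChR2 pups, and Erc2 (chromosome 14, 27622410 to 28478537) had 357 to 379 and 359 to 396. The groups overlapped for both genes. The log2 differences were -0.011 (95% interval -0.059 to 0.036) for Erc1 and 0.0069 (-0.046 to 0.060) for Erc2, so that the intervals exclude a difference as large as that measured for Pclo. Erc1 lay between -0.019 and -0.0028 with 1 pup left out.

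The Munc13 genes, whose products prime vesicles, were unequal in level but both without a difference past the threshold. Unc13a (chromosome 8, 71626712 to 71671775) had 421 to 494 normalized reads with a median of 455 in ChR2-flfl and 428 to 469 with a median of 456 in Avil-ChR2 pups, a log2 difference of -0.018 (exact permutation p = 0.61) that lay between -0.034 (without ChR2-flfl replicate 4) and -0.0011 (without ChR2-flfl replicate 1) with 1 pup left out. Unc13b (chromosome 4, 43058862 to 43264887) had 91.4 to 116 normalized reads with a median of 96.7 in ChR2-flfl and 88.9 to 102 with a median of 94.2 in Avil-ChR2 pups. Here 7 of 8 Avil-ChR2 pups were lower than the mean of the controls and 3 lower than the lowest control, and ChR2-flfl replicates 7 and 1 were again the highest. The log2 difference of Unc13b was -0.079 (95% interval -0.17 to 0.015, exact permutation p = 0.14). It was -0.048 without ChR2-flfl replicate 7 and -0.017 without the 3 pups of lowest array weight.

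Both liprin-alpha members had log2 differences above 0, whereas the other liprin-alpha genes, Ppfia4 (-0.038) and Ppfia1 (-0.027), were below 0, and none of these was past the unadjusted threshold. Ppfia3 (chromosome 7, 45339126 to 45367019), the shortest member with a span of 27.9 kb, had 162 to 193 normalized reads with a median of 174 in ChR2-flfl and 160 to 202 with a median of 181 in Avil-ChR2 pups. The groups overlapped almost fully, 7 of 8 Avil-ChR2 pups exceeded the mean of the controls, and the log2 difference was 0.045 (95% interval -0.043 to 0.13, exact permutation p = 0.34). With 1 pup left out it lay between 0.024 (without Avil-ChR2 replicate 1) and 0.072 (without Avil-ChR2 replicate 6). Ppfia2 (chromosome 10, 106468872 to 106933468) had 193 to 217 normalized reads in ChR2-flfl and 193 to 226 in Avil-ChR2 pups, a log2 difference of 0.021 (exact permutation p = 0.56). With 1 pup left out it lay between 0.0047 (without Avil-ChR2 replicate 6) and 0.038 (without Avil-ChR2 replicate 2). Ppfia2 lies on the same chromosome as Avil, at a distance of 20.1 Mb. The only other entry that overlapped a member was Mtag2, on the opposite strand of Ppfia3, with 0.188% of its median value.

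**Figure D4:**
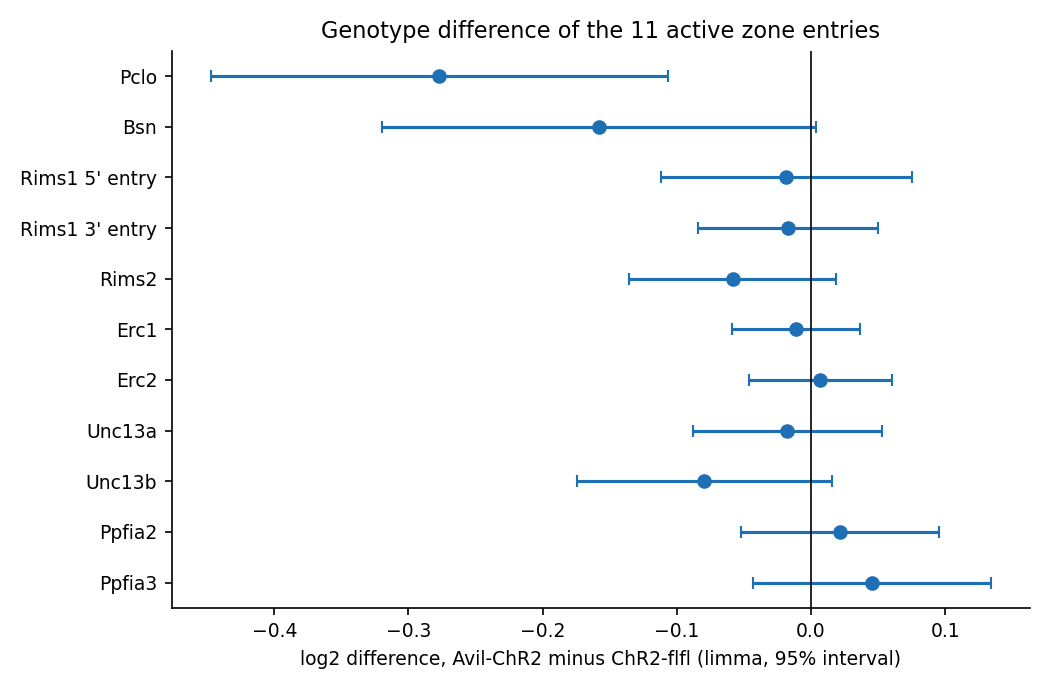
Log2 difference between the genotypes (x axis, points) with the 95% interval of limma (bars) for the 11 entries (y axis), n = 8 pups per genotype. The interval of Pclo, -0.45 to -0.11, is the one that leaves out 0.

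The members also differed in how much they varied between pups of 1 genotype. The SD of log2 values within genotypes was 0.19 for Pclo and 0.18 for Bsn, above that of 98.0% and 97.4% of the 5099 entries whose mean log2 value reached 5.5, where the median SD was 0.068. It was 0.037 for Erc1 and 0.045 for Erc2, above 4.57% and 14.1% of these entries. The spread of Pclo was uneven, with a coefficient of variation of 17.6% in ChR2-flfl and 7.94% in Avil-ChR2 pups.
Deviations from the genotype means, which share library and depth, were correlated with a median r of 0.32 over 55 pairs of entries (n = 16 pups), and 44 pairs were above 0. The highest were Bsn with Unc13a (r = 0.81), Rims1 3' entry with Ppfia2 (0.80), Erc2 with Ppfia2 (0.80) and Pclo with Unc13b (0.78), and the lowest was Erc2 with Ppfia3 (-0.70). Among 15137 entries whose mean log2 value reached 0, those most like Pclo by this measure were 2410089E03Rik (0.97), Zfp704, Fat1, Dst and Fat3 (0.96 each). Those most like Bsn were Chd5 (0.94), Trrap (0.94), Lrp1, Gm15800 and Gltscr1 (0.93 each). Bsn itself was in place 348 for Pclo (r = 0.71), and Pclo was in place 363 for Bsn.

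Pclo and most other members are long genes, so that their values were set beside a measure of gene length in each library. For each pup, a length slope was calculated, the slope of its deviations from the mean log2 value of each gene on the log10 genomic span, over 15126 entries without the members. It was between -0.036 and 0.069 in ChR2-flfl and between -0.040 and 0.030 in Avil-ChR2 pups, with means of 0.015 and -0.015 (two-sided exact permutation test, p = 0.057). The groups overlapped, and the highest pup was ChR2-flfl replicate 7.
Pclo correlated with the length slope (n = 16 pups, r = 0.70, permutation p = 0.0023, adjusted p = 0.0084 over 11 entries; rho = 0.65, permutation p = 0.0080, adjusted p = 0.022). Without the 2 pups of farthest slope r was 0.62. Within genotypes it was 0.76 in ChR2-flfl and 0.13 in Avil-ChR2 pups, a difference that was not tested, and within the runs of pup numbers it was 0.80 and 0.53. No correlation was detected for Bsn over the 16 pups (r = 0.13, permutation p = 0.63, rho = 0.13, permutation p = 0.63). Its r was 0.21 in ChR2-flfl and -0.64 in Avil-ChR2 pups, and 0.52 (pups 26 to 33) and -0.28 (pups 35 to 42) by run. Unc13b had the highest correlation (r = 0.80, adjusted permutation p = 0.0013, rho = 0.76, within genotypes 0.85 and 0.56), and Ppfia3, the shortest member, had the lowest (r = -0.74, adjusted permutation p = 0.0054, rho = -0.74, within genotypes -0.64 and -0.88). The 3' entry of Rims1 (r = 0.66), Rims2 (0.66), Erc2 (0.64) and Ppfia2 (0.61) had adjusted permutation p between 0.010 and 0.020. Without the 2 pups of farthest slope their r was 0.60, 0.40, 0.65 and 0.59, so that the value of Rims2 rests in part on those pups. That of Erc1 went from 0.28 to 0.64 without them. Altogether 7 of 11 entries, 6 with r above 0 and 1 below, had an unadjusted permutation p under 0.05, which 30.3% of the 15137 entries with a mean log2 value of 0 or more had as well (14.1% above and 16.1% below 0). Of the 8 member entries with a span of at least 100 kb 6 were past this threshold, all with r above 0, beside 32.5% of the 2403 entries of that span (27.5% above and 5.08% below 0). The slope was calculated from most of these entries, so that the shares are a description.
When limma took the length slope as a covariate, Pclo had a log2 difference of -0.16 and Bsn one of -0.18, whereas Unc13b had -0.0022 and Ppfia2 0.080, with an adjusted limma p of 0.88 for both Pclo and Bsn. Then 2 entries, Pclo and Ppfia2, had an unadjusted p under 0.05, beside 5.44% of all entries. The log2 ratio of Pclo to Bsn differed by 0.012 between the genotypes in that fit, i.e. it turned its direction. Among 2403 entries with a span of at least 100 kb and a mean log2 value of 0 or more, 10.7% had a log2 difference below 0 with an unadjusted p under 0.05, and 0.832% one above 0. Their median log2 difference was -0.021.

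**Figure D5:**
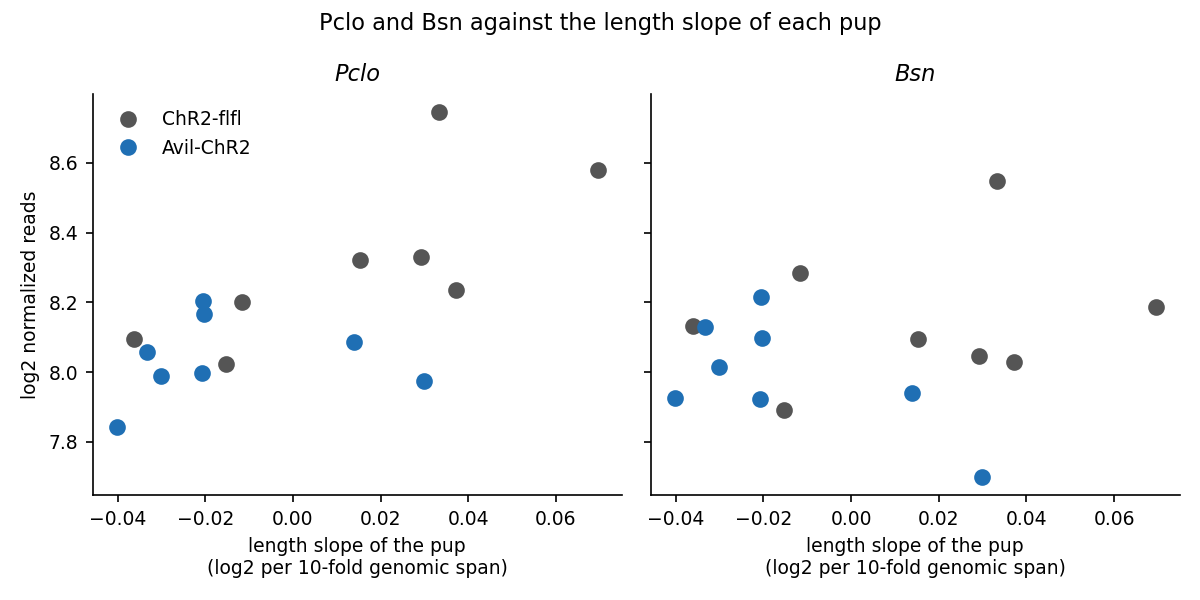
Log2 normalized reads of Pclo and Bsn (y axis) against the length slope of the pup (x axis, change in log2 value per 10-fold genomic span), 1 point per pup and colour for genotype. Pclo is high in the ChR2-flfl pups with a positive slope, and r over the 16 pups is 0.70 for Pclo and 0.13 for Bsn.

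Genes that work with the scaffolds were read as 3 lists. Of 24 other active zone genes, 1 was lower and 2 were higher in Avil-ChR2 at an unadjusted limma p under 0.05 (3.46% and 1.95% of all entries), none at an adjusted p under 0.05, 12 were below and 12 above 0, and the median log2 difference was -0.0075. The lowest were Unc13c, a further Munc13 gene (-0.083), and Cacna1b, the pore-forming subunit of N-type calcium channels (-0.080), and the latter was past the unadjusted threshold. The highest were Apba1 (0.059) and Lin7b (0.12), both past that threshold. Lin7b had 33.5 ± 3.28 normalized reads in ChR2-flfl and 36.2 ± 2.64 in Avil-ChR2 pups (SD, n = 8). Lin7b and Apba1 encode adaptors of a complex with Cask, whose log2 difference was -0.054.
None of 13 binding partners of piccolo or bassoon was past an unadjusted p of 0.05, and the median was 0.012. The lowest were the ubiquitin ligase Siah1a (-0.058), which bassoon and piccolo are known to restrain, and Trio (-0.051), and the highest were the dynein light chain Dynll1 (0.061) and Rabac1 (0.057). None of 20 genes of synaptic vesicles and of SNARE-driven fusion was past it either. Here 18 of 20 were above 0 (48.6% of all entries were below 0), with a median of 0.032 and values from -0.049 for Syn3 and -0.0023 for Sv2c to 0.064 for Vamp1 and 0.076 for Syn2. Their summed level was 9471 ± 348 normalized reads in ChR2-flfl and 9678 ± 265 in Avil-ChR2 pups (SD, n = 8, two-sided exact permutation test, p = 0.20), with Cplx2 as the most abundant gene. ChR2-flfl replicate 1 had the lowest sum (8809) and is the pup with the highest Pclo and Bsn.

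Markers of cell types were read beside the members. Of 48 marker genes, 2 were higher at an unadjusted limma p under 0.05, Slc17a7 (log2 difference 0.11) and the nearly absent Ttr, and none was lower, beside 1.95% higher and 3.46% lower over all entries. The sum of 7 excitatory cortical neuron markers was 1098 ± 45.8 normalized reads in ChR2-flfl and 1138 ± 43.4 in Avil-ChR2 pups (SD, n = 8, log2 difference 0.053, two-sided exact permutation test, p = 0.091, adjusted p = 0.68 over 15 lists). Over the whole list of 8 markers the log2 difference of the sum was 0.038 and was past the unadjusted threshold (two-sided exact permutation test, p = 0.046, adjusted p = 0.34 over 15 lists). Of these 8 genes, 4 had a log2 difference below 0 and 4 above 0. Slc17a7, the most abundant of them, had 469 ± 42.9 normalized reads in ChR2-flfl and 507 ± 28.8 in Avil-ChR2 pups (SD, n = 8). Inhibitory neuron, astrocyte, oligodendrocyte lineage, microglia, endothelial, choroid plexus, meningeal, red blood cell and striatal markers had sums with exact permutation p between 0.22 and 0.99. P2ry12, Folr1, Kcnj13, Alas2 and Kcnq1ot1 of these lists were not analysed here. ChR2-flfl replicate 1, with the highest Pclo and Bsn, had the lowest sum of astrocyte markers (666 normalized reads, Slc1a3 being the most abundant) and of microglia markers (52.0, Csf1r) among the 16 pups, and also the lowest share of reads in mitochondrial genes of all pups (3.09%, highest 3.76%). Of 5 nuclear noncoding RNAs, 1 was lower in Avil-ChR2 at an unadjusted p under 0.05 (3.46% of all entries) and 4 had a log2 difference above 0 without passing that threshold. The lower one was Malat1, with 305 ± 88.7 normalized reads in ChR2-flfl and 206 ± 29.4 in Avil-ChR2 pups (SD, n = 8, log2 difference -0.53, adjusted limma p of 0.72), itself a gene that the study picked on these pups. ChR2-flfl replicate 7, with the next highest Pclo, had the highest sum of the 5 nuclear RNAs among the 16 pups (3927 normalized reads). It also had the lowest sum of the 8 excitatory neuron markers (1370). The part of cell composition and of nuclear RNA in the values of Pclo and Bsn was not tested.

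The sexes were compared with the sexes of the labels, 4 female and 4 male ChR2-flfl and 5 female and 3 male Avil-ChR2 pups. The log2 difference of Pclo was -0.47 in males and -0.10 in females, and that of Bsn was -0.37 and 0.021. Pclo had 260 to 322 normalized reads in female and 294 to 430 in male ChR2-flfl pups, and 254 to 295 in female and 230 to 287 in male Avil-ChR2 pups. Bsn had 237 to 281 in female and 273 to 374 in male ChR2-flfl pups, and 243 to 297 in female and 208 to 274 in male Avil-ChR2 pups. Male ChR2-flfl pups thus reached the highest values of both genes, and the sexes overlapped in both genotypes. The genotype by sex interaction (male minus female) was -0.36 for Pclo (standard error 0.14) and -0.39 for Bsn (standard error 0.13), and both had an adjusted limma p of 0.99. With Unc13a (-0.13), 3 of 11 entries had an unadjusted p under 0.05 for the interaction, beside 4.31% of all entries, and none of 21183 entries had an adjusted p under 0.05 (912 unadjusted). Both of the ChR2-flfl pups with the highest Pclo, replicates 1 and 7, were male. With 1 pup left out, the interaction was past the unadjusted threshold for 2 entries in 8 of 16 fits (without ChR2-flfl replicates 1, 3, 4 or 5 or Avil-ChR2 replicates 3, 5, 6 or 8) and for 3 entries in the others, among them that without ChR2-flfl replicate 7.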

How the data were processed

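RNA of 16 mouse cortices (P7, 8 pups per genotype) was sequenced by the study from stranded mRNA libraries. SeqMan NGen aligned the reads (50 bp or longer) to GRCm38 (mm10), ArrayStar counted them per gene, and the authors applied TMM normalization in edgeR. The deposited values are linear TMM CPM, given for each pup on its own. The submitters' processing notes also name edgeR. Whether the counting used the strand is not given in the sources used here. Divided by the step of 1 read, 100% of the values up to 20000 reads were whole within 0.05 reads, which gave the reads per pup. Without molecular identifiers, these numbers bear on counting error only.

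The log2 scale was used with no pseudocount, and 4432 of 338928 values that were missing or under -5 were placed at -5. Entries above -5 in at least 12 of 16 pups were kept (21183), and all 11 member entries passed. Genotypes were compared with limma 3.58.1 in R 4.3.3 (intensity trend, Benjamini-Hochberg adjustment over all entries), single values with exact permutation tests over all splits of the pups, and correlations with 100000 permutations (scipy 1.17.1). The labels name the pups as biological replicates but give no litters. Spans are those of the deposited table, and transcript lengths are from GENCODE on GRCm38. Scripts were tested on simulated data. The sexes of the labels and of the study's list of pups differ for Avil-ChR2 replicate 4 (female in the labels).

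The members, gene lists and tests were chosen with earlier results of these data known. The genes named are the members, per list the 2 lowest and 2 highest log2 differences, Avil, markers and the 5 genes most correlated with Pclo or Bsn. For some lists the most abundant gene (as Cplx2) and the genes that were not analysed are named as well. Cask, Ppfia1, Ppfia4, Malat1, Mtag2, Slc17a7 and Ttr were singled out after their values were seen. The sum of the excitatory neuron markers is given without 1 gene that is not reported here, a choice made after seeing the data but not for its values, and the test of the whole list is given beside it. Alternatives were log2(value + 1), other filters and scalings, drawn missing values, covariates (sex, length slope, run of pup numbers), the replicate number as a block, array weights, voom on recovered reads, each run alone and each pup left out.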

Additional observations from a re-analysis of the deposited data

Results flagged for a closer look

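The genotype by sex interaction was past an unadjusted limma p of 0.05 for 3 members, beside 4.31% of all entries. The log2 difference in males minus that in females was -0.36 for Pclo, -0.39 for Bsn and -0.13 for Unc13a. Each had an adjusted limma p of 0.99, and no entry of all had one under 0.05. Under the sexes of the study's own list of pups the interaction was -0.38 for Pclo, -0.37 for Bsn and -0.17 for Unc13a. The 3' entry of Rims1 was then past the threshold as well (-0.12). The share of all entries past it under these sexes is not given here. For Unc13a, ChR2-flfl pups had 421 to 453 normalized reads in females and 457 to 494 in males. Avil-ChR2 pups had 428 to 469 and 431 to 457. Unc13a was picked for its interaction, so that these ranges are a description. The groups held 3 to 5 pups per sex and genotype, and the count of members past the threshold was 2 to 3 with 1 pup left out.

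A single pup stood apart for Rims2. ChR2-flfl replicate 7 had 122 normalized reads, whereas the other ChR2-flfl pups had between 99.1 and 109. It was the only 1 of 34 groups of values with such a gap, where chance gives about 1 in 20.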

How the results depend on the processing

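Pclo kept a log2 difference below 0 and an unadjusted p under 0.05 under all alternatives run, with values from -0.30 to -0.16 and from -0.32 to -0.22 with 1 pup left out, and an adjusted limma p between 0.33 and 1.0. Bsn lay between -0.18 and -0.045, and between -0.20 and -0.10 with 1 pup left out. The count of members at an unadjusted p under 0.05 was 2 with the length slope as a covariate and 1 under the other alternatives, and it was 1 to 3 with 1 pup left out (1 without ChR2-flfl replicate 1, 3, with Bsn and Unc13b, without ChR2-flfl replicate 3). Over all entries, 1 in place of 2 had an adjusted p under 0.05 with median centring, the length slope as a covariate, the replicate block, either run of pup numbers alone and without the 3 pups of lowest array weight, 3 with the run of pup numbers as a covariate, and 1 to 2 with 1 pup left out. The count at an unadjusted p under 0.05 was 672 in pups 26 to 33 alone and 929 to 1581 with 1 pup left out.

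Several members with a log2 difference near 0 turned its sign under some of the alternatives, whereas Erc1 (-0.011) kept it under all that were run. With the length slope as a covariate the values were 0.012 for the 5' and 0.027 for the 3' entry of Rims1, -0.023 for Ppfia3 and 0.012 for the log2 ratio of Pclo to Bsn. In pups 26 to 33 alone they were 0.029 (Rims1 5' entry), -0.00092 (Erc2), 0.0023 (Unc13a) and -0.0070 (Ppfia2), and in pups 35 to 42 alone -0.0074 (Ppfia3). Without the 3 pups of lowest array weight they were 0.014 and 0.019 for the Rims1 entries and 0.030 for Unc13a, and array weights gave -0.0037 for Erc2. With 1 pup left out, the 5' entry of Rims1 lay between -0.041 and 0.010, Erc2 between -0.0065 and 0.014 and the log2 ratio of Pclo to Bsn between -0.15 and -0.086, where it had an exact permutation p of 0.037 without ChR2-flfl replicate 5 and 0.044 without Avil-ChR2 replicate 6. The genotype difference of the length slope was -0.030. It was -0.024 over all genes that passed the filter (exact permutation p = 0.11). With transcript length in place of the genomic span it was -0.062 (exact permutation p = 0.038). With 1 pup left out it was -0.038 to -0.023 (exact permutation p between 0.019 and 0.12). This p was under 0.05 in 5 of 16 fits, without ChR2-flfl replicates 2, 3 or 5 or Avil-ChR2 replicates 5 or 6. The causes were not tested.

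The genotypes share replicate numbers, which are serial numbers of different animals. Deviations of pups with the same number correlated between -0.34 and 0.39, and 2 of 16 pups correlated best with their own number, so that the numbers do not pair the pups. With complete numbers the replicate block cannot move the log2 differences of Pclo (-0.28) and Bsn (-0.16), whose adjusted limma p were 0.91 and 0.94 with it, and it lowered the count at an adjusted p under 0.05 to 1. The planned count models (edgeR and DESeq2 on recovered reads) were not run, and voom on recovered reads took their place (Pclo -0.28, Bsn -0.16). The 95% interval of the log2 difference was -0.45 to -0.11 for Pclo and -0.059 to 0.036 for Erc1, so that the size of a detectable difference varied between members.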
